A study of Mus musculus with 42 samples.

Results

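The distal colon crypts of mice homozygous for the P209T allele of *Mtg16* (*Mtg16* T/T, C57/BL6 background) were compared between 3 libraries made after dextran sulfate sodium (DSS) injury and recovery and 4 libraries made at baseline. These 7 libraries are every distal T/T crypt library among the 42 libraries of the series and were chosen by genotype, colon segment and treatment alone. The study asks how the corepressor MTG16 (official gene symbol *Cbfa2t3*) shapes the colonic epithelium at rest, in colitis and in cancer, and P209T is a germline point mutation, carried by all cells of the mouse, that weakens the binding of MTG16 to its E protein partners. The mice, aged 8 weeks or more, came from crosses of heterozygotes and had littermates with 2 WT alleles of *Mtg16*, which gave 3 distal libraries after DSS and 3 at baseline. Mice of the DSS groups drank 2% (w/v) DSS for 5 days and then water for 4 days, and baseline mice received no DSS. Crypts were released with a chelating agent from the distal colon, defined as its last 5 cm before the anus, so that each library is a mixture of epithelial cells with whatever blood and stromal cells stayed attached. In such bulk RNA, fewer cells of a type and less RNA per cell cannot be told apart.

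MTG16 has no DNA-binding domain of its own and is brought to chromatin by transcription factors, among them the E proteins, which bind the E box sequence CANNTG and which are held inactive when they pair with Id proteins. In the colon crypt, stem cells at the base give rise to absorptive colonocytes and to the secretory goblet, enteroendocrine and tuft cells. DSS strips the surface epithelium, and the crypts that remain meet bacteria and white blood cells and regrow while they switch on antimicrobial and fetal-like genes.

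Reads assigned to genes numbered 34495101 to 55317582 in the T/T libraries after DSS and 38715663 to 44798151 at baseline. Values given below are scaled read counts, that is, whole reads of a gene divided by the relative size of the library (TMM scale), and fold changes are on the scale of log2 of the scaled count plus 1. Adjusted p-values in the text come from limma, unless edgeR is named, with Benjamini-Hochberg adjustment over all genes tested and a call at an adjusted p under 0.05. The DSS libraries carry sequencing request 5740 and the baseline libraries 5094 in both genotypes, so request and treatment cannot be told apart. By *Xist* and the Y-linked *Ddx3y*, T/T baseline replicates 1 and 3 were female and replicates 2 and 4 were male, and all 3 T/T libraries after DSS were male. The libraries also differed along transcript length. In the quintile of longest genes the median log2 deviation from the gene mean was 0.30 in DSS replicate 2 and -0.71 in DSS replicate 3, against -0.094 to 0.20 in the baseline libraries. The labels do not say that the libraries of a group came from separate mice, and p-values then measure only the spread between these samples, which may be technical. Epithelial markers (10 of 10 present, summed level 866440 to 1306470 after DSS and 942250 to 1083087 at baseline) far exceeded those of any other cell type, and none of the 10 was called. The summed level of 12 T cell markers was 960 to 1281 after DSS and 1536 to 2491 at baseline. Smooth muscle markers stood at 76.4 to 155 after DSS and reached 2313 in 1 baseline library, replicate 4.

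**Figure D1:**
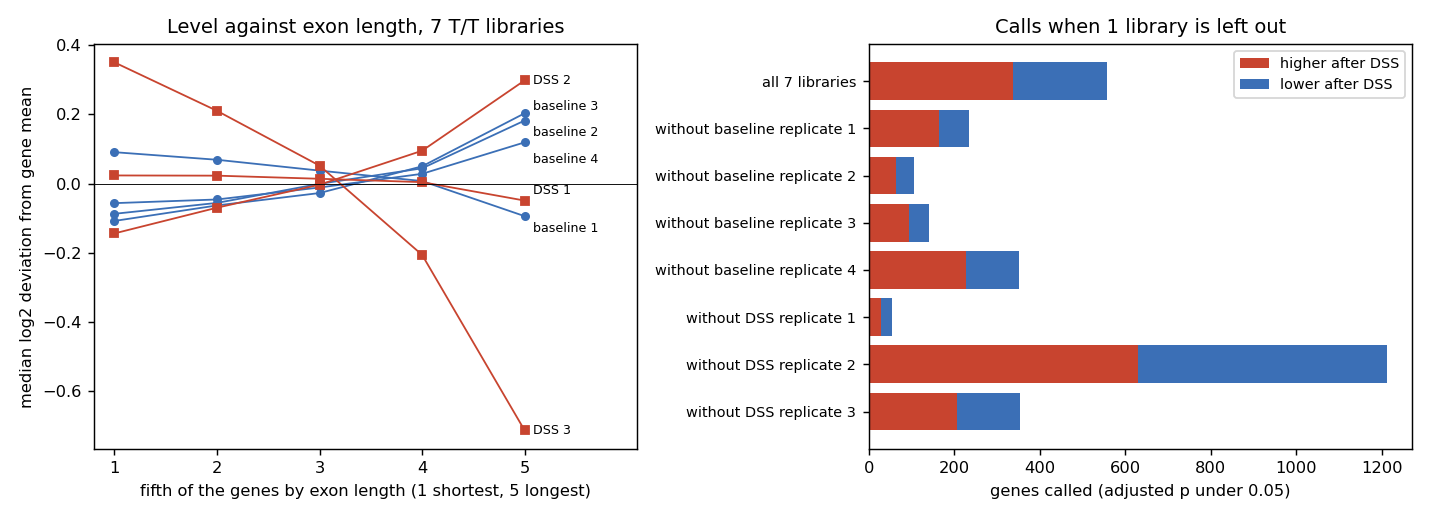
Left, median log2 deviation from the gene mean in each quintile of the genes by exon length, one line per T/T library (blue, baseline; red, after DSS), with DSS replicate 3 falling to -0.71 in the longest quintile. Right, genes called higher (red) or lower (blue) after DSS with all 7 libraries (338 and 218) and with each library left out, from 53 calls without DSS replicate 1 to 1211 without DSS replicate 2.

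After DSS, 338 genes were higher and 218 lower in T/T crypts among 13708 tested (2.47% and 1.59%, together 4.06%), and 137 of the higher and 77 of the lower calls were at least 4-fold. At an unadjusted p under 0.05 there were 2954 genes. The counts rested on single libraries. They fell to 29 higher and 24 lower without DSS replicate 1 and came to 630 and 581 without DSS replicate 2, which lay among the baseline libraries on the first principal component (58.7% of the variance; coordinate 7.94, against -3.95 to 60.0 at baseline and -48.6 and -103 in the other DSS libraries). With the sex of the mouse as a covariate, 15 higher and 3 lower genes passed the threshold, and with male libraries alone (3 after DSS, 2 at baseline) 4 and 1. In all 556 called genes the 3 DSS libraries lay wholly above or wholly below the 4 baseline libraries, a pattern held by 21.0% of all genes tested. Of 92 called genes refitted with each library left out in turn (the set chosen by the rule for named genes), 25 were called whichever library was left out: *Reg3b*, *Prss22*, *Reg3g*, *Krt90*, *Mmp7*, *Retnlb*, *Ccl9*, *Slc16a3*, *Ret*, *Ly6d*, *Tgm2* and *Sema7a* among the rises, and *Exosc6*, *Mptx1*, *Prkar2b*, *St8sia5*, *Slc37a2*, *Trpm5*, *Slc20a1*, *Ces1g*, *Ces1f*, *Tppp3*, *Naaladl1*, *Cpm* and *Eno3* among the falls. The other calls of that set were lost, or the gene was not tested, with at least 1 library left out, and called genes outside it were not refitted one by one. With sex as a covariate the calls for *Prss22*, *Mmp7*, *Exosc6*, *Retnlb*, *Ccl9*, *Ret*, *Ly6d*, *Tgm2* and *Cpm* remained.

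The largest rise was that of *Reg3b*, a C-type lectin that gut epithelium secretes against bacteria (ENSMUSG00000071356, chr6:78370657-78373466, GRCm38, plus strand). *Reg3b* had scaled counts of 34.9, 32.4, 311 and 239.8 in the 4 baseline libraries and 97339, 31374 and 38038 in the 3 DSS libraries. The 3 DSS libraries lay far above the highest baseline library, replicate 3 (log2 fold change 8.97, standard error 0.89, adjusted p = 0.00553). Its neighbour *Reg3g*, a lectin of the same family that acts on Gram-positive bacteria, went from 52.9, 35.7, 208 and 145 to 26880.4, 10214 and 5558 (log2 fold change 7.03, standard error 0.72, adjusted p = 0.00598). Both genes were called whichever library was left out, and their groups did not overlap, as in every called gene.

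The promoters of these neighbours and of *Mptx1*, the protein-coding gene with one of the largest falls, are shown because E proteins bind E boxes and because *Reg3b* and *Reg3g* moved together. They are RefSeq promoters of GRCm38.p6, from 250 bases before to 50 after the gene start that RefSeq gives, written on the strand of the gene in lower case with E boxes (CANNTG, which reads the same pattern on both strands) in capitals.
Reg3b promoter, chr6:78370635-78370934, plus strand: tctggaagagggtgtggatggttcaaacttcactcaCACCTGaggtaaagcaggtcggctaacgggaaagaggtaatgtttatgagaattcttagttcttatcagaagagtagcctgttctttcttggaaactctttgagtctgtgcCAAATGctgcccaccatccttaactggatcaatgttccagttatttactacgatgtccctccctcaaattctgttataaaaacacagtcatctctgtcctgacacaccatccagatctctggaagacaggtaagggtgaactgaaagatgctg
Reg3g promoter, chr6:78468825-78469124, minus strand: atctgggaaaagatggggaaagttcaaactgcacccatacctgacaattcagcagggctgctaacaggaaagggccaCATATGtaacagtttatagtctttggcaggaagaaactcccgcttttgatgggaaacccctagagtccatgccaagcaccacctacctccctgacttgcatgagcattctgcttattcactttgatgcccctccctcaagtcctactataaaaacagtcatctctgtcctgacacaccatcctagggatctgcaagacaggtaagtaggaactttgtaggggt
Mptx1 promoter, chr1:174330268-174330567, plus strand: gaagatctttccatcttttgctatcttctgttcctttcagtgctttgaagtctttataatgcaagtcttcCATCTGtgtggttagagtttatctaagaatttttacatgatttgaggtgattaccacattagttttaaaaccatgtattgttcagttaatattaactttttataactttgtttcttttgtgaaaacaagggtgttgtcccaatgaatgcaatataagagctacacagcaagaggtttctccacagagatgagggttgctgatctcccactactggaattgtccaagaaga
For *Reg3b* the RefSeq start lies downstream of the GENCODE start printed above, so that most of this promoter, both E boxes included, lies inside the gene as GENCODE draws it. The *Reg3b* promoter held 2 E boxes, and that of *Reg3g* and *Mptx1* 1 each. The *Reg3b* and *Reg3g* promoters were 69.0% identical in a global alignment, and their E boxes differed in sequence and place, at 214 and 103 bases before the RefSeq start in *Reg3b* and at 173 in *Reg3g*. Promoters were matched for 10768 of the 13708 genes tested. CANNTG stood in 64.0% of these, in 69.1% of the 236 matched promoters of genes called higher and in 67.9% of the 168 of genes called lower. The narrower E box CAGGTG (or its complement CACCTG) stood in 18.4% of all promoters, in 25.0% of those of higher and in 23.8% of those of lower genes. CAGCTG stood in 14.9%, 19.5% and 13.1%. The pattern TTCNNNGAA, the form of STAT binding sites, stood in 6.95%, 7.63% and 3.57%. These shares are descriptions and carry no test.

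The other large rises were in genes of several kinds. *Pcsk5*, a proprotein convertase, had 3.78, 0, 0 and 31.6 scaled counts at baseline and 1363, 592 and 806 after DSS (log2 fold change 7.94, standard error 1.17, adjusted p = 0.0148). *Prss22*, a serine protease of epithelia, was at 0 in 3 baseline libraries and at 5.26 in replicate 4, against 324, 249 and 341 after DSS (log2 fold change 7.58, standard error 0.69, adjusted p = 0.00409). *Mmp7*, the matrix protease matrilysin that epithelium makes on injury, went from 6.61, 5.41, 4.99 and 14.7 to 245, 317 and 563 (log2 fold change 5.42, standard error 0.44, adjusted p = 0.00317). The antisense gene AV064505 overlaps *Mmp7*, and the sources used here do not state that reads were counted by strand. *Krt90*, a keratin, rose by 5.45, the membrane protein *Mal* by 5.22, and *Hp*, the plasma protein haptoglobin, by 5.01 (log2, adjusted p = 0.00652, 0.0227 and 0.0108). Baseline replicate 4 had the highest baseline count of *Pcsk5*, *Prss22*, *Mmp7*, *Mal* and *Hp*. In all 5 genes the lowest DSS library lay above it, as the rule for the largest rises required.

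The falls were led by *Exosc6*, a subunit of the RNA exosome, with 778, 481, 493 and 537 at baseline and 0 in all 3 DSS libraries. Against a floor of 3 reads per library it was at least 189-fold lower. *Exosc6* (chr8:111056339-111057664) lies wholly inside *Aars* on the same strand, so that Salmon had to divide reads between overlapping transcripts and its value is uncertain. Equally uncertain is *Rpl14-ps1*, a processed pseudogene of a ribosomal protein gene that lies inside *Trpm4* (2282, 1008, 1163 and 2756 at baseline, 30.1, 0 and 26.8 after DSS). *Mptx1*, a mucosal pentraxin of the colon and thus a secreted recognition protein of the C-reactive protein family (chr1:174330518-174332873), had 62377, 62438, 69044 and 32149 at baseline and 463, 3062 and 552 after DSS (log2 fold change -5.88, standard error 0.63, adjusted p = 0.00652). DSS replicate 2 kept the most *Mptx1* of the 3 and still lay far below the lowest baseline library. *Slc37a2*, a sugar-phosphate transporter, fell from 14678, 15656, 23751 and 8075 to 559, 1782 and 644 (log2 fold change -4.07, standard error 0.48, adjusted p = 0.0078). *St8sia5*, a sialyltransferase, fell from 1727, 1312, 2299 and 949.8 to 44.7, 175 and 86.2 (log2 fold change -4.07, standard error 0.47, adjusted p = 0.0078). Falls of the same order were called for *Prkar2b*, a regulatory subunit of protein kinase A (-4.45, adjusted p = 0.00652), *Adamts9*, a matrix protease (-4.25, adjusted p = 0.0224), *Slc16a12*, a monocarboxylate carrier (-3.84, adjusted p = 0.0322), *Tppp*, a tubulin-binding protein (-3.65, adjusted p = 0.0389), and *S100g*, the calcium-binding protein calbindin-D9k (-3.52, adjusted p = 0.024). Of the 20 genes with the largest changes, *Slc16a12* and *Tppp* were not called by edgeR (adjusted p = 0.0511 and 0.0512).

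**Figure D2:**
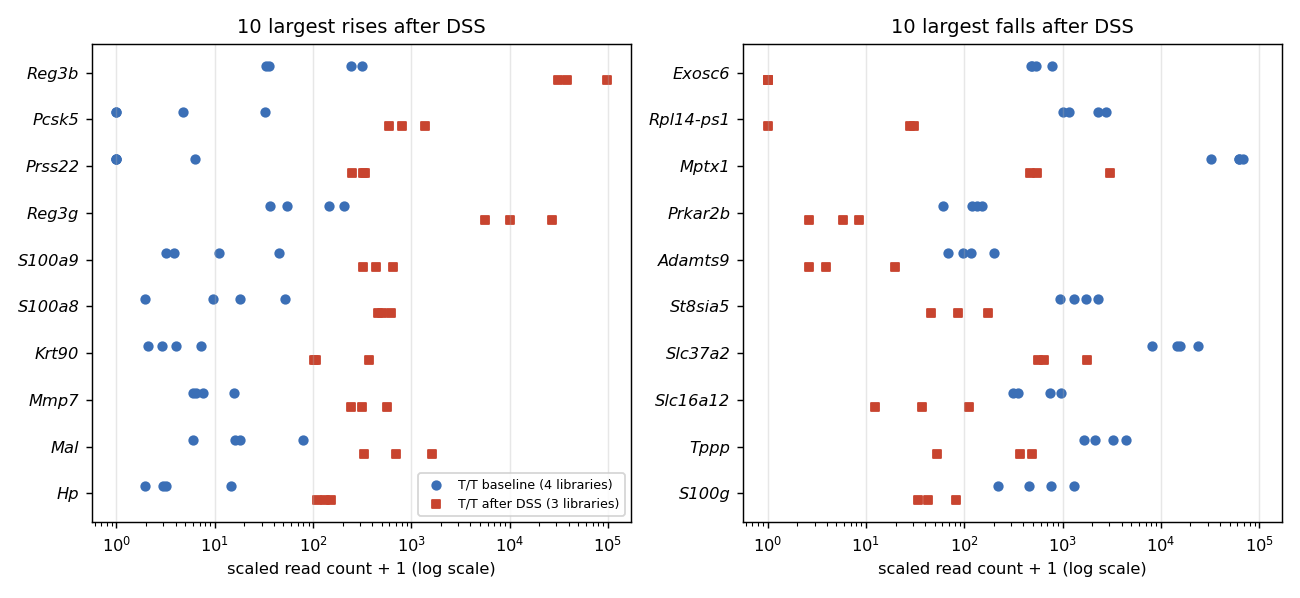
Scaled read count plus 1 on a log axis of the 10 largest rises (left) and 10 largest falls (right) among called genes with a mean of at least 100 scaled counts in the higher group, 1 point per T/T library (blue circles, 4 at baseline; red squares, 3 after DSS). No overlap between the DSS and baseline libraries was a condition for a gene to be shown here.

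Antimicrobial proteins held 4 of the 10 largest rises. Of 21 antimicrobial genes tested, 8 were higher and 1 lower, beside 2.47% and 1.59% of all genes tested. Their median log2 fold change was 0.87, against -0.041 over all genes tested. With the length trend removed, 9 were higher, beside 3.13% of all genes, and 1 lower, beside 1.98%. The 8 genes called higher before that removal included *Reg3b*, *Reg3g* and *Retnlb*, a goblet cell protein that acts on bacteria and worms. The others were *S100a8* and *S100a9*, the subunits of calprotectin, *Nos2*, inducible nitric oxide synthase, *Saa3*, a serum amyloid, and *Chil3*, a chitinase-like protein. *Retnlb* went from 1431, 1498, 1171 and 1577 to 29499, 10416 and 19703 (log2 fold change 3.69, standard error 0.32, adjusted p = 0.00366) and was called whichever library was left out. *S100a8* had 0.944, 8.65, 17 and 50.5 at baseline and 498, 619 and 454 after DSS, a rise of 5.50 (log2, adjusted p = 0.0254). *S100a9* rose by 5.67 (adjusted p = 0.0176). In both subunits the lowest DSS library lay above every baseline library, as in every gene called higher. *Saa3* rose by 2.33 (adjusted p = 0.00993), *Chil3* by 4.90 (adjusted p = 0.00553) and *Nos2* by 1.81 from 1854, 1833, 4076 and 3421 to 7027, 11681 and 9404 (adjusted p = 0.0298). The 1 member that fell was *Wfdc2*, a protease inhibitor (-1.58, adjusted p = 0.00668).

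Calprotectin is also the main cytosolic protein of neutrophils. Of 15 neutrophil and myeloid markers tested, *S100a8* and *S100a9* were the 2 called, beside 2.47% higher and 1.59% lower of all genes tested. The summed level of the 16 markers listed was 11292 to 18625 after DSS and 12684 to 15252 at baseline. Gene by gene, 11 of the 15 had a log2 fold change above 0, with a median of 0.74, 7 wholly above baseline (11.8% of all genes tested) and a mean log2 level of 7.44 to 7.81 after DSS against 5.98 to 6.83 at baseline. The markers *Mpo*, *Elane* and *Clec7a* were not tested. The collagenase *Mmp8*, a neutrophil product, is listed in the DSS table alone, with 30, 33 and 11 reads in the T/T libraries. The part of white blood cells in these rises was not tested.

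Signals between epithelium and white blood cells rose in part. Of 19 chemokines tested, 4 were higher and none lower (median 0.37), beside 2.47% and 1.59% of all genes tested. *Ccl9* went from 183, 158, 136 and 221 to 1044, 851 and 1081 (log2 fold change 2.52, standard error 0.21, adjusted p = 0.00319) and held with any library left out. The neutrophil attractants *Cxcl2* and *Cxcl3* rose by 3.36 and 4.23, from at most 18 and 2.99 at baseline to 72.9, 302 and 41.5 and 40.8, 65.9 and 18.7 (adjusted p = 0.0425 and 0.014). *Cxcl2* was highest in DSS replicate 2, as was *Il1b*. Of 21 cytokine genes, 4 were higher and none lower (median 0.063), against the same background. They were *Il1b*, interleukin 1 beta (28.3, 10.8, 18 and 15.8 at baseline, 188, 465 and 71.6 after DSS, 3.35, adjusted p = 0.0298), its decoy receptor *Il1r2* (3.21, adjusted p = 0.0292), *Tnf* (129, 154, 204 and 123 against 299, 337 and 409, 1.20, adjusted p = 0.0358) and the TNF receptor *Tnfrsf1b* (1.31, adjusted p = 0.0128).

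Most genes induced by interferon did not pass the test. Of 35, 3 were higher and none lower (median 0.079), beside 2.47% higher and 1.59% lower of all genes tested. *Ido1*, which breaks down tryptophan, went from 455, 1103, 797 and 486 to 5317, 1829 and 3403 (log2 fold change 2.27, standard error 0.43, adjusted p = 0.0312), *Cxcl10* rose by 1.57 and *Usp18* by 1.25 (adjusted p = 0.0477 and 0.0436). Among 11 genes of antigen presentation by MHC class II, the 1 call was a fall of *H2-Aa*, from 36722, 24964, 28064 and 24462 to 13922, 12524 and 12640.5 (log2 fold change -1.11, standard error 0.17, adjusted p = 0.0167), with a median of -0.45 for the list. *Cd74*, the invariant chain that escorts it, had 95690.0, 62371, 74599 and 65939.9 at baseline and 60408, 51556 and 62693 after DSS (adjusted p = 0.283).

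Fetal-like genes, which adult crypts express again on injury, gave rises and no falls. Of 22 fetal-like and revival genes tested, 5 were higher and none lower (median 0.72), beside 2.47% higher and 1.59% lower of all genes tested. Beside *Mmp7* they were *Msln*, mesothelin (1.89, 3.24, 0.998 and 15.8 at baseline, 46.6, 62.2 and 128 after DSS, 4.02, adjusted p = 0.0298), *Plaur*, the urokinase receptor (205, 145, 129.7 and 207 against 663, 541 and 472, 1.71, adjusted p = 0.013), *Sprr1a*, a cornified envelope protein (1.38, adjusted p = 0.0489), and *Cd44*, the hyaluronan receptor (1.11, adjusted p = 0.047). *Sprr1a* was not called once the trend with transcript length was removed, at a log2 fold change of 1.31 (adjusted p = 0.0858). Among 11 matrix proteases and their regulators, 4 were higher: *Mmp7*, *Plaur*, the gelatinase *Mmp9* (1.89, 2.16, 3.99 and 14.7 at baseline, 89.4, 108 and 103 after DSS, 4.29, adjusted p = 0.0125) and tissue plasminogen activator *Plat* (1.69, adjusted p = 0.0389).

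Signatures from other work that the study compiled gave the following counts, to be read beside the 2.47% higher and 1.59% lower of all genes tested. Of 147 genes of a signature of regenerating epithelium after DSS colitis that were tested, 39 were higher and 1 lower (median 0.78). Of 59 genes of a composite signature of injury and regeneration, 16 were higher and none lower (median 0.45), and 28 lay wholly above baseline, a place held by 11.8% of all genes tested. A fetal epithelial signature gave 29 higher and 8 lower of 228 (median 0.14), and a signature of *Ascl2*-expressing cells that dedifferentiate gave 20 and 8 of 187 (median 0.14). The signature of *Clu*-expressing revival cells gave 12 and 2 of 391 (median -0.10).

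**Figure D3:**
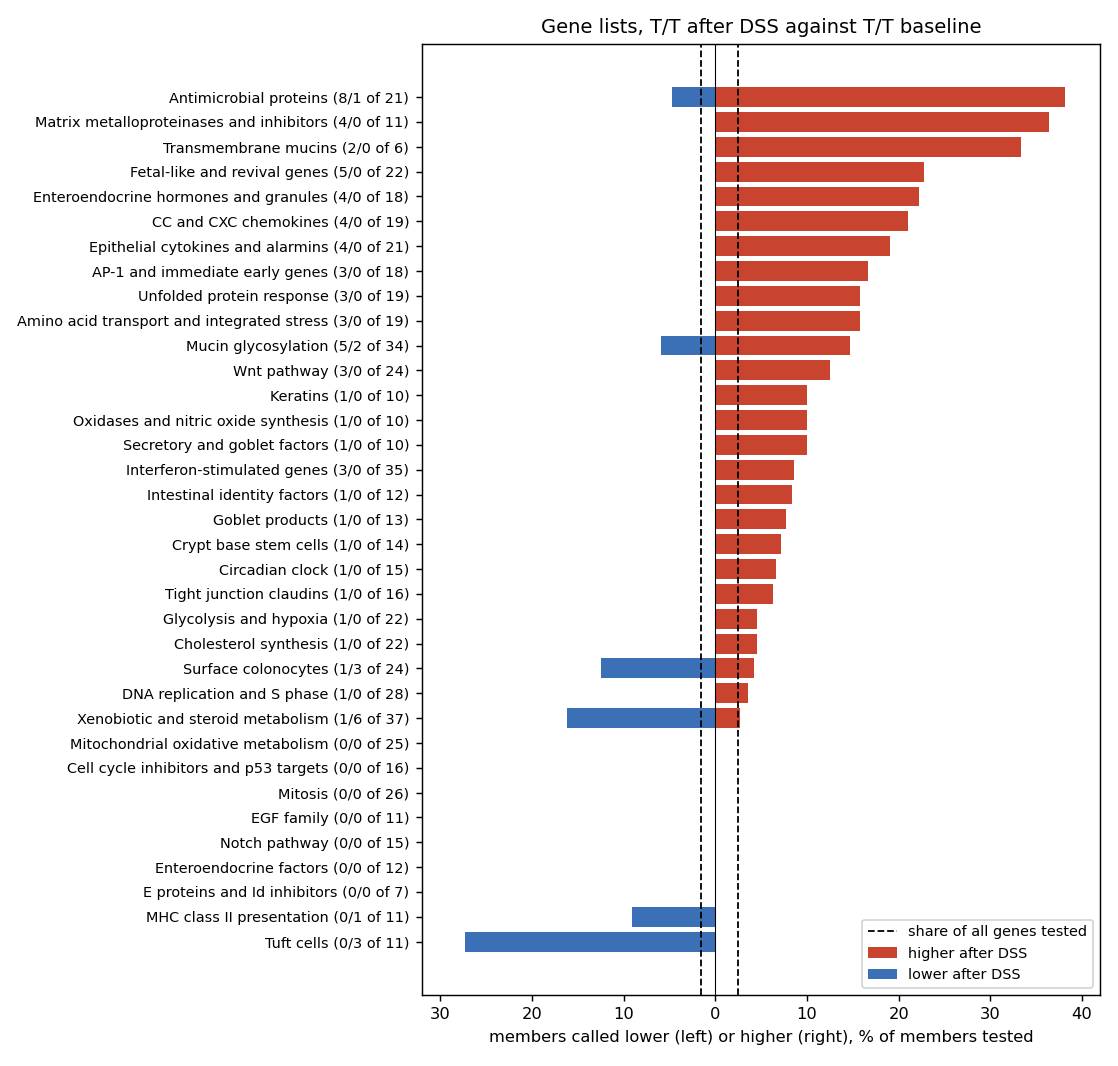
Share of tested members called higher (red, right) or lower (blue, left) after DSS in T/T crypts for 35 gene lists, with the counts of higher and lower calls and of members tested in brackets. Dashed lines mark the shares of all 13708 genes tested, 2.47% higher and 1.59% lower. Antimicrobial genes lead on the right and tuft cell genes on the left.

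Of the secretory lineages, goblet cells make the mucus layer, and of 13 of their products tested *Retnlb* was the 1 called (median 0.26). *Fcgbp*, an abundant protein of the mucus gel, had 418328, 392521, 393899 and 479502 at baseline and 346378, 367625 and 449205 after DSS, and the groups overlapped (adjusted p = 0.571). *Spdef*, the transcription factor of goblet cell maturation, rose from 2311, 2013, 1849.9 and 2738 to 5712, 4259 and 6672 (log2 fold change 1.31, standard error 0.21, adjusted p = 0.0197), while *Atoh1*, which opens the secretory path, had 2703, 3035, 2615 and 3114 at baseline and 2919.7, 2267 and 3148 after DSS (-0.055, adjusted p = 0.836). In the published goblet signature 31 of 388 genes were higher and 4 lower (median 0.24), beside 2.47% and 1.59% of all genes tested.

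Of 18 enteroendocrine hormone and granule genes, 4 were higher and none lower (median 0.057; 2.47% and 1.59% of all genes tested). The published enteroendocrine signature gave 6 higher and 2 lower of 149 (median -0.092), and that of enterochromaffin cells none and 1 of 17. *Cck*, cholecystokinin, went from 42.5, 34.6, 26.9 and 66.3 to 298, 198 and 333 (log2 fold change 2.71, standard error 0.35, adjusted p = 0.00993). *Nts*, neurotensin, had 3 reads over the 4 baseline libraries and 175 over the 3 DSS libraries, a ratio of 75.0 per library size (exact 95% counting interval 25.2 to 367; counting error only), with 95.2, 53.5 and 27.6 scaled counts after DSS. *Sct*, secretin, rose by 1.23 and *Gcg*, whose product is cut to glucagon-like peptides, by 0.79 (adjusted p = 0.047 and 0.0408), and the call for *Gcg* ended when the length trend was removed, at a log2 fold change of 0.73 (adjusted p = 0.0865). The general marker *Chga*, chromogranin A, had 4056, 3319, 4931 and 2717 at baseline and 2939, 3522 and 4779 after DSS (adjusted p = 0.995). None of 12 enteroendocrine transcription factors was called. *Neurog3*, which commits cells to this lineage, had 114, 169.7, 131 and 168 at baseline and 292, 195 and 343 after DSS, with no overlap between the groups (log2 fold change 0.90, standard error 0.26, adjusted p = 0.106). *Neurod1*, which acts after it, had 104, 179, 246 and 133 and 195, 251 and 84.6, with overlap.

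Tuft cells are chemosensory cells of the epithelium. Of 11 of their genes tested, 3 were lower and none higher (median -0.93), and 5 lay wholly below baseline, a place held by 9.2% of all genes tested. *Trpm5*, the cation channel of taste transduction, went from 185, 155, 156 and 166 to 58.3, 44.8 and 40.7 (log2 fold change -1.78, standard error 0.22, adjusted p = 0.00881) and was called whichever library was left out. *Dclk1*, a kinase that marks tuft cells, fell from 272, 277, 241 and 262 to 112, 56 and 25.2 (-2.26, adjusted p = 0.0353), and *Sh2d6* fell by 1.89 on the log2 scale (adjusted p = 0.0441). edgeR called *Trpm5* but neither *Dclk1* nor *Sh2d6* (adjusted p = 0.0511 and 0.0587). In the much longer published tuft signature, 15 of 434 genes were higher and 14 lower, beside 2.47% and 1.59% of all genes tested.

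Among 24 genes of surface colonocytes, which absorb water and salts, 3 were lower and 1 higher (median -0.20). The water channel *Aqp8* was very even at baseline, with 21735, 22133, 21372 and 21919, and had 11566, 12295 and 8026 after DSS (log2 fold change -1.06, standard error 0.17, adjusted p = 0.0188). *Slc20a1*, a phosphate carrier, fell from 11601, 10525, 13582 and 12627 to 4283, 4896 and 3508 (log2 fold change -1.52, standard error 0.16, adjusted p = 0.00652), and the proton pump *Atp12a* from 32123, 35912, 39885 and 26287 to 10180.5, 18615 and 6360.1 (-1.64, adjusted p = 0.0404), a call that edgeR did not make (adjusted p = 0.0534). *Slc51a*, a bile acid exporter, rose from at most 2.10 to 45.7, 11.2 and 35.8 (3.72, adjusted p = 0.0246). The published absorptive signature gave 13 higher and 17 lower of 424 (2.47% and 1.59% of all genes tested).

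Of 14 genes of crypt base stem cells tested, *Sox9* was the 1 called, from 2274, 2176, 2253 and 2169.8 to 3499.7, 3374 and 3315 (log2 fold change 0.61, standard error 0.12, adjusted p = 0.0353), and it was also the 1 call among 12 factors of intestinal identity, beside 2.47% higher and 1.59% lower of all genes tested. *Lgr5*, the receptor that marks crypt base stem cells, had 303, 396, 407 and 188 at baseline and 239, 377 and 105 after DSS, and *Ascl2*, its regulator, 401, 268, 295 and 291 and 214, 228 and 377; both overlapped between groups (-0.55, adjusted p = 0.452 and -0.23, adjusted p = 0.565). In the Wnt pathway, which keeps stem cells dividing, 3 of 24 genes were higher: the receptor *Fzd2* (36.8, 25.9, 21 and 41 at baseline, 179, 109 and 189 after DSS, 2.32, adjusted p = 0.0135), cyclin D1 *Ccnd1* (5777, 4002, 3609 and 3537 against 10843, 7696 and 12955, 1.31, adjusted p = 0.0298) and *Ephb2* (0.80, adjusted p = 0.0471). *Ephb2* was not called with the length trend removed, where its log2 fold change was 1.14 (adjusted p = 0.136).

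Cell division genes gave 1 call in all, beside 2.47% higher and 1.59% lower of all genes tested. Of 28 genes of DNA replication, *Cdc6*, which loads the replicative helicase, rose from 388, 339, 233 and 221 to 689, 558 and 633 (1.12, adjusted p = 0.047), with a median of 0.63 over the list. None of 26 mitosis genes was called (median -0.72). Their levels varied between libraries of a group, as *Mki67*, a marker of dividing cells, shows with 3846, 25744, 21657 and 7534 at baseline and 2177, 7066 and 1495 after DSS (log2 fold change -1.99, standard error 0.77, adjusted p = 0.186). *Mki67* was lowest in baseline replicate 1 and DSS replicate 3, the libraries of each group with the lowest medians in the quintile of longest genes. With the length trend removed its change was -1.73 (adjusted p = 0.144).

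*Mtg16* itself, listed as *Cbfa2t3* (chr8:122625141-122699109, minus strand), had 2140.2, 1921, 1579 and 2264 scaled counts at baseline and 2782, 2569 and 2729.6 after DSS. All 3 DSS libraries lay above the 4 baseline libraries, and the change did not pass the test (log2 fold change 0.46, standard error 0.16, adjusted p = 0.158). A point mutation leaves the transcript in place, so these counts do not check the genotype. None of the 3 MTG family genes and none of the 7 genes of E proteins and Id inhibitors was called. The E protein genes *Tcf3*, *Tcf4* and *Tcf12* had mean levels of 2581 ± 392, 1325 ± 456 and 2106 ± 465 at baseline (SD, n = 4) and of 3254 ± 678, 1090.1 ± 679.8 and 1764 ± 994 after DSS (SD, n = 3). *Tcf3* encodes E12 and E47, *Tcf4* E2-2 and *Tcf12* HEB. Among their inhibitors, *Id2* had 639, 577, 543 and 515 at baseline and 331, 443 and 297 after DSS, with no overlap (log2 fold change -0.69, standard error 0.19, adjusted p = 0.0956). *Id1* (-0.21, adjusted p = 0.626), *Id3* (-0.56, adjusted p = 0.249) and *Id4* (0.53, adjusted p = 0.298) overlapped between the groups. In the Notch pathway, which sets absorptive against secretory fate, none of 15 genes was called (median 0.26), and none of 11 genes of the EGF family was (median 0.25).

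Stress genes gave rises and no falls, beside 2.47% higher and 1.59% lower of all genes tested. In amino acid transport and the integrated stress response, 3 of 19 genes were higher, among them *Slc7a5*, a carrier of large neutral amino acids, from 592, 358, 419 and 549 to 1763, 1341 and 2691 (1.98, adjusted p = 0.0136), and *Asns*, asparagine synthetase (1.31, adjusted p = 0.0246). The third, *Slc7a1* (1.13, adjusted p = 0.024), lost its call with the length trend removed, at a log2 fold change of 1.43 (adjusted p = 0.0704). In the unfolded protein response 3 of 19 were higher, the chaperone *Hyou1* from 8065, 6994, 7258 and 7122 to 15382, 14017 and 23148 (1.22, adjusted p = 0.0176), *Creld2* (0.90, adjusted p = 0.0489) and *Pdia4* (0.64, adjusted p = 0.0439). Among immediate early genes, which also respond to tissue dissociation, 3 of 18 were higher: *Jun* (0.70, adjusted p = 0.0397), *Ier3* (1.36, adjusted p = 0.0322) and *Hspa1b* (1.05, adjusted p = 0.0499), the last not called by edgeR (adjusted p = 0.0529). The lactate exporter *Slc16a3* was the 1 call of 22 genes of glycolysis and hypoxia, from 251, 214, 259 and 430.2 to 1269, 1479.8 and 1376 (log2 fold change 2.30, standard error 0.25, adjusted p = 0.00652), and held with any library left out. No gene of 25 in mitochondrial fuel oxidation was called.

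Of 37 enzymes and carriers of drug and steroid metabolism tested, 6 were lower and 1 higher (median -0.62; 1.59% and 2.47% of all genes tested), and 16 lay wholly below baseline, against 9.2% of all genes tested. The carboxylesterases *Ces1g* and *Ces1f*, which cleave esters, went from 834, 636, 517 and 667 to 75.8, 87 and 34.2 (log2 fold change -3.40, standard error 0.34, adjusted p = 0.00564) and from 2023, 1680.0, 1635 and 1814 to 603, 429 and 361 (log2 fold change -1.97, standard error 0.20, adjusted p = 0.00618). Both were called whichever library was left out. They are neighbours and relatives of *Ces1d*, which also fell (-1.41, adjusted p = 0.0298), and reads shared among such paralogs can be split between them. *Cyp2d10*, a cytochrome P450, fell from 4566, 3926, 5637 and 4148 to 1045, 1826 and 1457 (-1.69, adjusted p = 0.0108). The 1 member that rose, *Ugt2b5*, had low counts (36.9, 26.1 and 11.4 after DSS, 3.05, adjusted p = 0.0499).

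Mucins and the sugars on them form the coat of the epithelium. Of 6 transmembrane mucins 2 were higher, *Muc3a* (627, 1105, 784 and 1583 at baseline, 4157, 2665 and 3199 after DSS, 1.77, adjusted p = 0.0298) and *Muc4* (6602, 7393, 7901 and 8391 against 13297, 16310.3 and 16125, 1.01, adjusted p = 0.0136). Of 34 enzymes listed under mucin glycosylation 5 were higher and 2 lower (median -0.037), beside 2.47% higher and 1.59% lower of all genes tested. *B4galnt1*, on that list although it is an enzyme of ganglioside synthesis, rose from 785, 359, 272 and 1037 to 6124, 3433 and 7057 (3.31, adjusted p = 0.0158). *B3gnt6*, the core 3 synthase, rose from 37.8, 25.9, 22.9 and 35.8 to 379.9, 132 and 186 (2.77, adjusted p = 0.013), and the fucosyltransferase *Fut2* from 9643, 9446, 10381 and 11397 to 20781, 19516 and 27218 (1.13, adjusted p = 0.0125). *Chst5*, a sulfotransferase with 23.6, 11.9, 32.9 and 8.41 at baseline, had no read in the 3 DSS libraries and was at least 6.34-fold lower against the floor of 3 reads per library. Of 16 tight junction genes *Cldn15* was the 1 called (1.36, adjusted p = 0.0298), and of the 10 listed keratins tested *Krt36* (1.55, adjusted p = 0.0297). The called keratin *Krt90*, described above, was not on that list.

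Markers of cells other than epithelium gave 5 calls, all higher, beside 2.47% higher and 1.59% lower of all genes tested: *S100a8*, *S100a9*, *Ret*, *Cd79a* and *Fn1*. Tested were 12 markers of T cells, 7 of B and plasma cells, 15 of neutrophils and myeloid cells and 11 of fibroblasts. Smooth muscle had 7, red blood cells 5, endothelium 3, and enteric glia and neurons 3. *Ret*, a receptor of the enteric nervous system, rose from 139.8, 154, 169.6 and 167 to 704, 933 and 877 (log2 fold change 2.40, standard error 0.18, adjusted p = 0.00236), while *Uchl1*, another marker of enteric neurons, had 71.8, 54.1, 58.9 and 52.6 and 14.6, 48.5 and 42.3, and *Sox10*, *S100b*, *Elavl4* and *Gfap* were not tested. *Cd79a*, of B cells, had 23.6, 8.65, 5.99 and 10.5 and 79.7, 38.5 and 193 (2.86, adjusted p = 0.0468). Of 7 B and plasma cell markers tested, 6 had a log2 fold change above 0 and 4 lay wholly above baseline (median 1.59; 11.8% of all genes tested lay wholly above), while *Jchain*, the one with the most reads, had 794, 396, 553 and 1650.3 and 463, 542 and 294 (-0.80, adjusted p = 0.329). The fibroblast gene *Fn1*, fibronectin, had 20.8, 40, 18 and 54.7 and 233, 177 and 186 (2.67, adjusted p = 0.0168). The summed level of 13 fibroblast markers was 1225 to 2496 after DSS and 738 to 959 in 3 baseline libraries, with 2406 in baseline replicate 4. Of the 11 tested, 10 had a log2 fold change above 0 (median 0.78). All 5 red blood cell markers tested had a log2 fold change above 0 (median 2.95), and none was called. The haemoglobin gene *Hbb-bs* had 88.8, 65.9, 41.9 and 622 at baseline and 1591, 368 and 1904 after DSS, and baseline replicate 4 lay above DSS replicate 2 (3.21, adjusted p = 0.111). The part of these cells in the changes above was not tested.

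The WT littermates give the background for the T/T change, since their libraries carry the same 2 request numbers and share no library with the T/T groups. In a joint fit of 13 libraries, 1780 genes were higher and 2983 lower after DSS in WT crypts among 13693 tested (13% and 21.8%, together 34.8%). The excess of lower over higher calls in WT turned round with the length trend removed (3005 higher, 2751 lower), without WT DSS replicate 1 (357 and 186) and without WT DSS replicate 2 (394 and 162). In the same fit T/T crypts had 734 higher and 666 lower genes (5.36% and 4.86%, together 10.2%). Of the 556 genes called from the 7 T/T libraries, 546 were tested in the joint fit, 500 had the same sign in WT, 291 were called in WT in the same direction and 4 in the opposite direction. Genes called in both genotypes and in the same direction numbered 689, which is 49.2% of the T/T calls and 14.5% of the WT calls. A gene called in 1 genotype alone is not thereby shown to differ, so the difference of the 2 changes was tested for each gene. It was called for 30 of 13693 genes (0.219%), 6 with a higher (0.0438%) and 24 with a lower change in T/T (0.175%). At an unadjusted p under 0.05 there were 1496. edgeR called 2 genes and DESeq2 219, and 18 of the 30 had an adjusted p of 0.0482 in limma. The count was 2 to 86 with 1 library left out, 1 with the replicate number as a block and 0 by limma in males alone (646 at an unadjusted p under 0.05). Of the 12 differences refitted one by one, those of *Tgm2* and *Exosc6* were called whichever of the 13 libraries was left out, and the other 10, given below, were lost with at least 1 left out. *Mptx1* held in 1 of those 13 fits.

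*Tgm2*, transglutaminase 2, which crosslinks proteins in wound repair, shared the lowest adjusted p with *Exosc6*. On the joint scale it had 1129, 1128, 1396 and 896 scaled counts in T/T at baseline and 8569, 6182 and 8064 after DSS, against 1686, 1562 and 1312 and 1749.9, 1719.6 and 2171 in WT. All 3 T/T libraries after DSS lay far above the 10 other libraries. The log2 fold change from the T/T libraries alone was 2.78 (adjusted p = 0.00222), and in WT it was 0.31 (adjusted p = 0.205). The difference was 2.44 (95% interval 1.88 to 2.99, adjusted p = 0.00866). Part of *Tgm2* overlaps *Rprd1b* on the other strand.

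The change was also higher in T/T for 3 more genes of at least 100 scaled counts in the highest group. *Ly6d*, a small surface protein of the Ly6 family, had 18.3, 19.8, 21.6 and 27.7 and 395, 204 and 474 in T/T, and 66.9, 45.8 and 40.8 and 104, 83.2 and 49.4 in WT (difference 3.32, 95% interval 2.24 to 4.40, adjusted p = 0.0398). *Sema7a*, a membrane-anchored semaphorin, had 56.9, 74.6, 96 and 91.9 and 691, 462 and 469 in T/T, and 89.5, 152 and 90.1 and 175, 156 and 161 in WT (difference 2.14, adjusted p = 0.0482). *Ubash3b*, a phosphatase, differed by 1.54 (adjusted p = 0.0482). In *Ly6d* all T/T libraries lay below all WT libraries at baseline and above them after DSS, while in *Sema7a* the genotypes overlapped at baseline and not after DSS.

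Genes that fell more in T/T, or fell there alone, were of several functions. *Tppp3*, a tubulin-binding protein, had 1364, 1446, 991 and 676 and 188, 162 and 156 in T/T, and 797, 671 and 509 and 1549, 1718 and 760.1 in WT (difference -3.63, 95% interval -4.64 to -2.62, adjusted p = 0.0236). *Mptx1* fell from 59373, 50428 and 51753 to 18002, 14899.7 and 23026 in WT, a smaller change than in T/T (difference -4.36, adjusted p = 0.0499). *Cpm*, carboxypeptidase M, had 2874, 2239, 2362 and 1724 and 282, 330.4 and 197 in T/T, and 1872, 1609 and 1869 and 940.0, 822 and 900.4 in WT (difference -2.09, adjusted p = 0.0305). *Pamr1* stood higher in T/T than in WT at baseline, with 254, 182, 304 and 209.3 against 47.8, 32.4 and 34.8, and at 20.8, 57 and 20.6 and 37.8, 38.5 and 51.7 after DSS (difference -3.11, adjusted p = 0.0482). The enolase *Eno3* (-2.08), the peptidase *Naaladl1* (-2.25) and the cytochrome P450 *Cyp2f2* (-2.56) also changed by less in WT or the other way. *Fcgbp*, not called in T/T, rose in WT by 1.08 (adjusted p = 0.00704) and differed by -1.24 (95% interval -1.70 to -0.78, adjusted p = 0.0482). The difference of *Fcgbp* was not refitted with single libraries left out. *Exosc6* differed by -8.21 in the fit, with 321, 355 and 39.2 in WT after DSS where T/T had 0, and carries the same doubt as above.

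**Figure D4:**
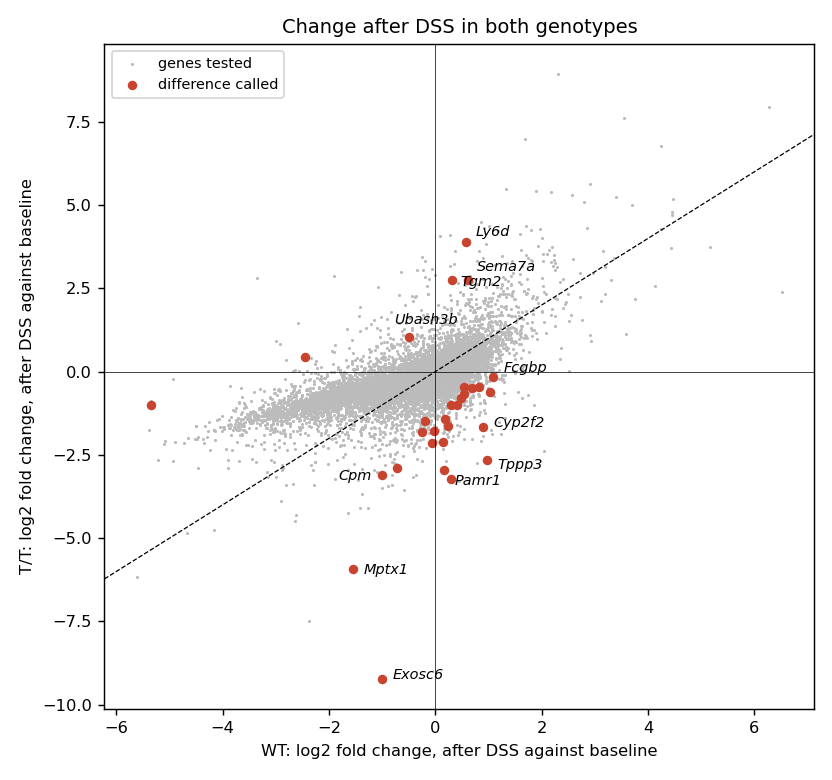
Log2 fold change after DSS in WT (x axis) and T/T (y axis) crypts for 13693 genes (grey), with the 30 genes whose difference was called in red and the line of equal change dashed. *Tgm2*, *Ly6d* and *Sema7a* lie at 0.31 to 0.61 on the WT axis and at 2.74 or more on the T/T axis.

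**Figure D5:**
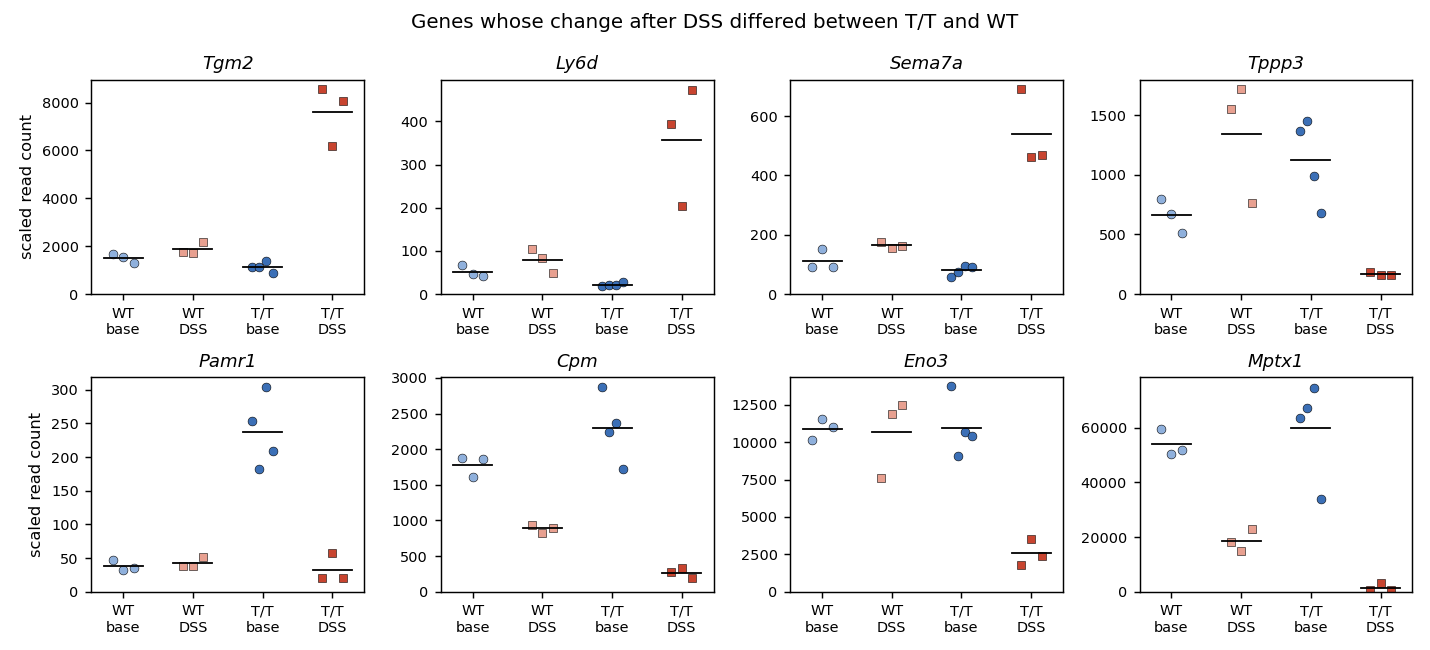
Scaled read counts on the joint scale in each library for 8 genes with a called difference (light blue, WT baseline; light red, WT after DSS; blue, T/T baseline; red, T/T after DSS; bars, group means). *Tgm2* stands at 6182 to 8569 in the T/T libraries after DSS and at 896 to 2171 in all others.

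For many genes that moved strongly in T/T, the test could not separate the genotypes. Some of them also rose in WT: *Pcsk5* by 6.28, *Mal* by 4.46, *Cck* by 2.35, *Spdef* by 1.61 and *Hyou1* by 1.25. Each was called there (adjusted p = 0.00892, 0.0104, 0.00764, 0.00511 and 0.00798), and none had a called difference. They were among the 291 of 546 T/T calls that were called in WT in the same direction. *Reg3b* and *Reg3g* had log2 fold changes of 2.31 and 1.68 in WT, neither of them called (adjusted p = 0.0925 and 0.135). The differences were 6.62 (95% interval 3.59 to 9.66, adjusted p = 0.102) and 5.32 (95% interval 2.78 to 7.85, adjusted p = 0.116). The genotypes did not overlap at baseline, with 4376, 4046 and 677 for *Reg3b* in WT against 35.7, 35, 336 and 252 in T/T, and 1667, 1532 and 291 for *Reg3g* in WT against 54, 38.4, 224 and 153 in T/T. After DSS *Reg3b* stood at 17884, 18648 and 4362 in WT and 99361, 31938 and 40138 in T/T on the same scale. For both genes all T/T libraries lay below all WT libraries at baseline. *Mmp7* differed by 3.22 (adjusted p = 0.0701) and *Ces1g* by -2.55 (adjusted p = 0.0787). Of 11 tuft cell genes none was lower in WT (1 higher, median 0.46), against 5 lower in T/T in the same fit (median -0.97), and none had a called difference. *Trpm5* differed by -2.26 (95% interval -3.34 to -1.17, adjusted p = 0.116). Of 13 goblet products 9 were higher in WT (median 0.78) and 2 in T/T in the same fit (median 0.23), and the difference was called for 1 of them, *Fcgbp*. In the signature of regenerating epithelium, 21 genes were higher and 13 lower in WT and 48 and 3 in T/T of 143 tested jointly, and 3 had a called difference. In the signature of *Ascl2*-expressing cells that dedifferentiate, 84 of 189 genes were higher and 22 lower in WT (median 0.47). In T/T 34 were higher and 17 lower in the same fit (median 0.084). A difference was called for 4 of these genes, all with the lower change in T/T. In the published goblet signature 175 of 388 genes were higher and 57 lower in WT (13% and 21.8% of all genes), and 63 were higher and 12 lower in T/T (5.36% and 4.86% of all genes). Of these 388 genes, 4 had a called difference, all with the lower change in T/T. In mitosis 14 of 26 genes were lower in WT and none in T/T, with no called difference. *Cbfa2t3* rose in WT, from 1072, 1122 and 1173 to 2940.2, 2879.9 and 2041 (1.20, adjusted p = 0.00631), and its change in T/T differed by -0.78 (95% interval -1.27 to -0.30, adjusted p = 0.232). On the scale of the T/T libraries alone, T/T had 1579 to 2264 at baseline and 2569 to 2782 after DSS. The T/T libraries thus lay above the WT libraries at baseline, and the genotypes overlapped after DSS.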

How the data were processed

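RNA was poly(A)-selected, and per the methods of the study the authors trimmed reads with fastp 0.20.0, quantified them with Salmon 1.3.0 against GENCODE vM21 (mm10) and normalized them in DESeq2 1.26.0 (R 3.6.3). The deposited values of the 2 tables used are signal, that is, read counts divided by a size factor the authors estimated within each table. Multiplied back, 100% of values were whole reads within 0.01. Genes listed in both tables (17113) were kept, and symbols came from GENCODE, since part of the deposited symbols are damaged. Reads were rescaled by TMM (edgeR 4.0.16) and tested with limma 3.58.1 (R 4.3.3, trend, two-sided) on log2(value + 1) at a mean of at least 10. The fit was tested on simulated data.

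The 7 T/T libraries were fitted alone, and 13 libraries jointly for WT and the difference. Genes named were those of the MTG16 and lineage set, the 10 largest called rises and falls (mean of at least 100 in the higher group, no overlap, no predicted gene names), up to 4 called members of each list, or its most abundant member where fewer than 2 were called, and the largest called differences between genotypes. Other members named in the text were chosen after their values were seen. The members and lists were chosen with earlier results of these data known. Alternatives were another pseudocount, filter, scale, test and fold threshold, each library left out, a replicate block, *Xist* or sex as a covariate, male libraries alone and removal of the length trend. The 7 other tables were not used here.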

Additional observations from a re-analysis of the deposited data

Results flagged for a closer look

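In 11 genes, baseline replicate 4 of T/T stood above the other 3 baseline libraries by more than Dixon's 95% limit. Its scaled counts were 31.6 for *Pcsk5*, 5.26 for *Prss22*, 14.7 for *Mmp7*, 77.8 for *Mal*, 13.7 for *Hp*, 3.16 for *Nts*, 15.8 for *Msln*, 6733 for *Bhlhe40*, 14.7 for *Mmp9*, 698 for *Tagln* and 622 for *Hbb-bs*. 8 of these genes, from *Pcsk5* to *Msln* and *Mmp9*, were called higher after DSS. *Bhlhe40*, a clock factor, and *Tagln*, a smooth muscle marker, were the most abundant members not called of their lists. Baseline replicate 3 stood apart for *Vwf* (224.5) and *Xist* (28915). Chance passes this limit in about 1 in 20 groups, and the flags of 1 library are not independent of each other.

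The change after DSS differed between T/T and WT crypts, by the test of the difference, in 13 of the genes named. On the log2 scale the T/T change minus the WT change was 2.44 for *Tgm2*, 3.32 for *Ly6d*, 2.14 for *Sema7a*, 1.54 for *Ubash3b*, -8.21 for *Exosc6*, -4.36 for *Mptx1*, -1.24 for *Fcgbp*, -3.63 for *Tppp3*, -3.11 for *Pamr1*, -2.56 for *Cyp2f2*, -2.25 for *Naaladl1*, -2.09 for *Cpm* and -2.08 for *Eno3*.

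*Mmp8*, a collagenase of neutrophils, was outside the comparisons because it is listed after DSS alone. It had up to 33 reads in a T/T library after DSS, against 2, 0 and 0 in the WT libraries after DSS.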

How the results depend on the processing

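The number of genes called in T/T (556) was 301 at a mean scaled count of at least 100, 1363 by DESeq2 and 1400 in the joint fit of 13 libraries, and 53 to 1211 with 1 library left out. With the replicate number as a block it was 90, although the numbers do not pair the libraries (correlations of the deviations of same-numbered libraries 0.056, 0.42 and -0.47). It was 9 with *Xist* as a covariate and, in alternatives chosen after seeing the data, 18 with sex as a covariate and 5 in males alone. All DSS libraries were male, so a sex covariate also leaves fewer baseline libraries to compare them with. Other pseudocounts, scales, thresholds, edgeR and removal of the length trend gave 527 to 701.

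The number of called differences between genotypes (30) was 10 with no filter, 10 with DESeq2 size factors, 15 with total reads as the scale, 2 by edgeR, 219 by DESeq2, 14 with the length trend removed, 4 with *Xist*, 2 with sex, and 0 by limma in males alone (646 at an unadjusted p under 0.05). It was 2 to 86 with 1 library left out and 1, *Tppp3*, with the replicate block. In WT the count (4763) was 2153 with the block, 2280 with *Xist*, 803 in males alone and 543 to 6943 with 1 library left out.

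Of the 92 called genes of the rule for named genes, 25 were called with each of the 7 libraries left out in turn, 34 held with the replicate block, 9 with sex as a covariate and 2 in males alone, *Exosc6* and *Tgm2*. Some named genes that were not called reversed. With the length trend removed the log2 fold change was 0.17 for *Tcf4*, 0.15 for *Fcgbp*, 0.082 for *Vwf*, 0.11 for *Cs* and -0.018 for *Chga*. *Neurod1* gave -0.0087 with total reads, -0.048 with the block and -0.0037 in the joint fit, and *Chga* -0.040, -0.14 and -0.034. *Cs* gave 0.0034 with DESeq2 size factors, 0.025 by edgeR, 0.011 by DESeq2 and 0.057 with the block, *Krt8* 0.0046 by edgeR and *Tagln* 1.3 with the block. With 1 library left out the ranges were -0.86 to 0.038 for *Tcf4*, -0.83 to 0.13 for *Tcf12*, -0.14 to 0.085 for *Atoh1*, -0.29 to 0.50 for *Neurod1*, -0.18 to 0.18 for *Chga*, -0.14 to 0.10 for *Cs*, -0.23 to 0.12 for *Krt8* and -1.18 to 1.3 for *Tagln*. The causes were not tested.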

Other observations

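The gene groups in this section were chosen after their values were seen and carry no test as groups. Genes that carry calcium, magnesium and phosphate across the epithelium gave 5 lower and no higher calls in T/T crypts among 12 tested (1.59% and 2.47% of all genes). *Trpv6*, the apical calcium channel, had 3379, 1242, 1886 and 2956 scaled counts at baseline and 131, 670.3 and 183 after DSS (-3.12, adjusted p = 0.0303 on the log2 scale). *Trpm6*, a magnesium channel, had 9020.0, 10076, 11470.5 and 4895 and 1163, 2810.4 and 442 (-2.90, adjusted p = 0.038), and the phosphate carrier *Slc34a2* 3149.9, 1750.2, 2518 and 953 and 123, 395 and 124 (-3.38, adjusted p = 0.0187). *S100g* and *Slc20a1*, described above, were the other two. In all 5 genes the DSS libraries lay below all baseline libraries, as in every gene called lower. *Vdr*, the vitamin D receptor, had 20025, 16376, 18818 and 21644 and 12918, 13126 and 12871 and was not called (-0.56, adjusted p = 0.0615). Of the 4 genes of the gasdermin C cluster, pore-forming proteins of the colonic surface, 3 were lower: *Gsdmc2* (-1.79, adjusted p = 0.0132), *Gsdmc3* (-2.39, adjusted p = 0.0113) and *Gsdmc4* (-1.84, adjusted p = 0.0265). These genes are close paralogs, and reads can be split between them.

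Posterior Hox and Evx genes, which set position along the gut, gave 2 higher and 2 lower calls of 14 (2.47% and 1.59% of all genes tested). *Hoxd13* had 4327, 4415, 5173 and 3535 at baseline and 1166, 2100.3 and 781 after DSS (-1.80, adjusted p = 0.0271), and its neighbour *Evx2* fell as well (-1.80, adjusted p = 0.0408). *Hoxa11* had 123, 115, 99.8 and 97.8 and 453, 234 and 281 (1.51, adjusted p = 0.0249), and *Evx1*, its neighbour in the HoxA cluster, rose by 1.73 (adjusted p = 0.0379). In each of the 7 genes tested from *Hoxd8* to *Hoxd13* and *Evx2* the DSS libraries lay below all baseline libraries, as in 9.2% of all genes tested. Of 6 mast cell genes tested, 2 were higher and none lower. The mucosal mast cell proteases *Mcpt1* and *Mcpt2* rose, from 147, 91.9, 42.9 and 43.1 to 897, 352 and 946 (3.22, adjusted p = 0.0227) and from 65.2, 29.2, 16 and 29.5 to 404, 163 and 248 (3.00, adjusted p = 0.022), while the mast cell protease *Cma1* had 87.8, 95.1, 69.8 and 85.2 and 50.5, 56 and 52, with all DSS libraries below baseline (-0.66, adjusted p = 0.138), and *Kit*, the receptor of mast cells and of some epithelial cells, had 1995, 1741, 1698 and 1764 and 1852, 1778 and 1305 (-0.14, adjusted p = 0.589).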
